A study of Homo sapiens with 6 samples.

Results

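The regions described here are stretches of chromatin that carried a broad H3K27ac peak in M2 macrophages and had no H3K27ac peak called over them in THP-1 cells. They were taken as the M2 peaks at least 3000 bp wide that share 0 bp with any THP-1 peak, with the Y chromosome left out, and are called broad M2-only peaks below. The rule gave 552 peaks of the 56420 in the M2 list. Of the 2468 M2 peaks of that width they are 22.4% (exact 95% binomial interval 20.7 to 24.1), while 63.0% of M2 peaks of any width overlapped no THP-1 peak. With both lists held to a -log10 q of at least 10 the count was 1057, or 43.0%. Holding the M2 list alone to that limit, a setting chosen after seeing the data, gave 550. The number thus depends on the threshold at which THP-1 peaks were called. The regions were chosen by their measured width in the M2 list and by the absence of a THP-1 peak, so their number, width and lack of overlap are descriptions and support nothing.

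H3K27ac is acetylation of histone H3 at a lysine of its tail, and it marks promoters and enhancers in use. Most active sites give a narrow mark around a nucleosome-depleted centre, whereas broad stretches and closely spaced groups of the mark are known from highly active promoters and from enhancer clusters near genes that define a cell type. Monocytes and macrophages share much of their enhancer landscape, and enhancers gained during macrophage differentiation or polarisation are known to appear both beside enhancers already present in monocytes and at sites with no earlier mark.

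The M2 group is the library labelled as M2 macrophages, a polarised state linked to tissue repair and found in tumours, and its comparison group is THP-1, a human monocytic leukaemia line. Both were grown in RPMI medium with serum and fixed with formaldehyde, and the labels do not say how the macrophages were obtained. Each had 1 H3K27ac library, so no difference between the cell types has a replicate check and no test was made. Intervals cover counting error only, because peaks from 1 library do not replicate each other. The YY1 and input libraries of both cell types were not analysed here, so a difference in DNA copy number and a difference in acetylation cannot be told apart. Positions are in hg19 and counted from 1. No hg19 gene annotation or sequence was used here, so regions are named by position and none is assigned to a gene.

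The broad M2-only peaks had a median width of 3614 bp (interquartile range 3246 to 4296) and together covered 2.20 Mb, which is 3.59% of the 61.3 Mb in M2 peaks. Most lay close to the width limit: 354 of the 552 (64.1%) were narrower than 4 kb, 70 spanned at least 5 kb and 3 spanned more than 10 kb. The narrowest were chr14:23000173-23003174 at 3002 bp, chr1:94214568-94217571 at 3004 bp and chr3:154781718-154784723 at 3006 bp, with fold enrichments of 11.7, 6.43 and 21.9. Just below the limit, the widest M2 peaks without THP-1 overlap spanned 2999, 2998 and 2997 bp, with fold enrichments of 15.5, 9.14 and 9.69. Fold enrichment here is the signal at the summit, the highest point of a peak, over its local background, as the authors' peak caller gave it.

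Wide M2 peaks lacked a THP-1 peak less often than narrow ones, and the widest of the broad peaks least often. Of M2 peaks of 3000 to 3499 bp, 239 of 970 had no THP-1 overlap, which is 24.6% (21.96 to 27.5), and in the next bins, up to 4999 bp, the share was much the same at 22.95% and 24.3%. Of those of 5000 to 6999 bp it was 55 of 332, or 16.6% (12.7 to 21.0), and of those of 7000 bp or more 15 of 138, or 10.9% (6.21 to 17.3). Among peaks narrower than 500 bp the share was 81.7% (81.1 to 82.3). A wider peak offers more sequence to overlap, and the part of this in the shares was not tested.

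Broad M2-only peaks had high enrichment in M2, which their choice by width favours, since fold rose with width. Among M2 peaks without overlap that were narrower than 500 bp, the median fold was 4.26. The fold enrichment of the broad M2-only peaks had a median of 11.4 (interquartile range 8.33 to 15.5), against 9.64 (6.82 to 13.2) in the 1916 broad M2 peaks that overlap a THP-1 peak. At each width from 2000 bp upwards the peaks without overlap had the higher median fold. At 3000 to 3499 bp it was 10.9 without and 9.04 with overlap, and at 7000 bp or more 15.8 without and 10.8 with overlap. From 1000 to 1999 bp the order was the other way round, 6.77 without and 6.97 with overlap.

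**Figure D1:**
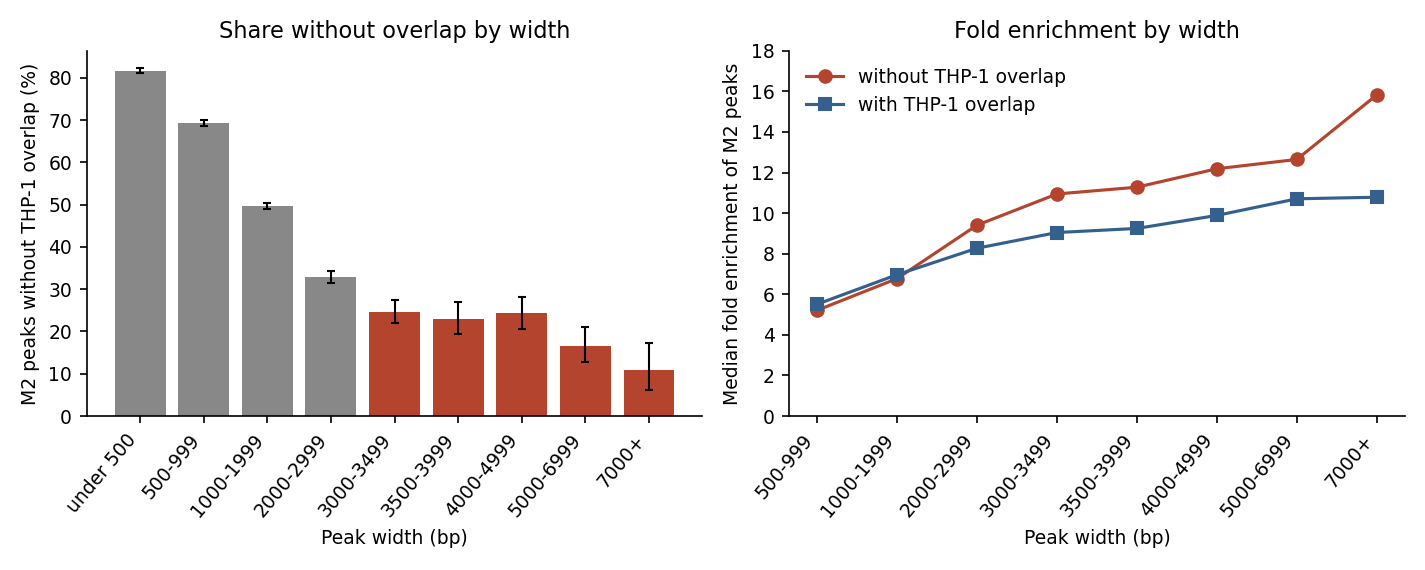
Left, share of M2 H3K27ac peaks without THP-1 overlap (y axis, percent) by peak width (x axis, bp), with exact 95% binomial intervals as error bars and the widths of at least 3000 bp in red. Right, median fold enrichment (y axis) by width for peaks without THP-1 overlap (red) and with it (blue), from 500 bp upwards. The share falls from 81.7% below 500 bp to 10.9% at 7000 bp or more, and the red line lies above the blue one from 2000 bp upwards.

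The number of DNA fragments over each summit, recovered from the fold enrichment and p-value of the peak, gave the opposite order. A median of 114 fragments (80 to 160) lay over the summits of broad M2-only peaks, against 145 (102 to 201) at broad M2 peaks with THP-1 overlap. The local background, expressed as a multiple of the lowest in the list, had a median of 3.61 at the broad M2-only peaks and 5.68 at those with overlap. The higher fold of the broad M2-only peaks went with a lower background and fewer fragments. These measures are tied, since fragments and background were both solved from the fold and p-value. Their -log10 q, with a median of 64.6, was below the 72.1 of the broad peaks with overlap over all widths. By width the order was not the same throughout, with 70.5 without and 67.6 with overlap at 3500 to 3999 bp, and 112.9 without and 104.2 with overlap at 7000 bp or more. Every broad M2-only peak had at least 24 fragments at its summit. Over peaks of any width, the fewest recovered at a summit were 9 for M2 and 8 for THP-1. The pileup was scaled in M2 only, and the p-value of a peak depends on its local background. Whether 24 fragments would have given a THP-1 peak at these sites was not tested. Fragments in THP-1 at these sites are not known, since its list holds no peak there, and a site can carry H3K27ac below the calling threshold.

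Counted from the lower coordinate, the summit of broad M2-only peaks stood at a median of 49.8% of the width (interquartile range 36.6 to 65.6). In broad M2 peaks with overlap it was 49.5% (33.4 to 65.6). The direction of counting is arbitrary, so a median near 50% does not show that summits are central. The summit fell in the middle 50% of the width in 428 of the 552 (77.5%, 73.8 to 81.0), against 1419 of 1916 (74.1%, 72.0 to 76.0) with overlap. In 37 of the 552 (6.70%) the summit stood within 500 bp of an edge, a lopsided shape that 6.89% of broad peaks with overlap also had.

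Broad M2-only peaks were found on all 23 chromosomes analysed. Chromosome 1 held the most with 59, followed by chromosome 8 with 43, chromosome 6 with 42 and chromosome 12 with 39, and chromosomes 21 and 22 held 6 each. Set against the number of M2 peaks, chromosome 13 was highest, with 16.2 per 1000 M2 peaks, and chromosomes 12, 8 and 9 followed with 14.5, 14.4 and 14.3. Chromosomes 16, X and 17 were lowest, with 4.18, 4.62 and 4.95.

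As a share of the broad M2 peaks of the chromosome, the M2-only ones ranged from 13.3% on chromosome 17 (12 of 90, interval 7.08 to 22.1) to 31.0% on chromosome 13 (22 of 71, 20.5 to 43.1) and chromosome 12 (39 of 126, 23.02 to 39.8). Chromosome 9 stood at 30.9% (34 of 110, 22.4 to 40.4). The interval held the genome-wide 22.4% on 20 of the 23 chromosomes, and chromosomes 9, 12 and 17 were the exceptions. The intervals treat peaks as independent though some lie in runs, and 23 were read at once. They therefore do not show that these 3 chromosomes depart from the rest. Among M2 peaks under 3000 bp, the share without THP-1 overlap on these 3 chromosomes was 65.3%, 69.0% and 60.2%, against 64.8% over all chromosomes.

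**Figure D2:**
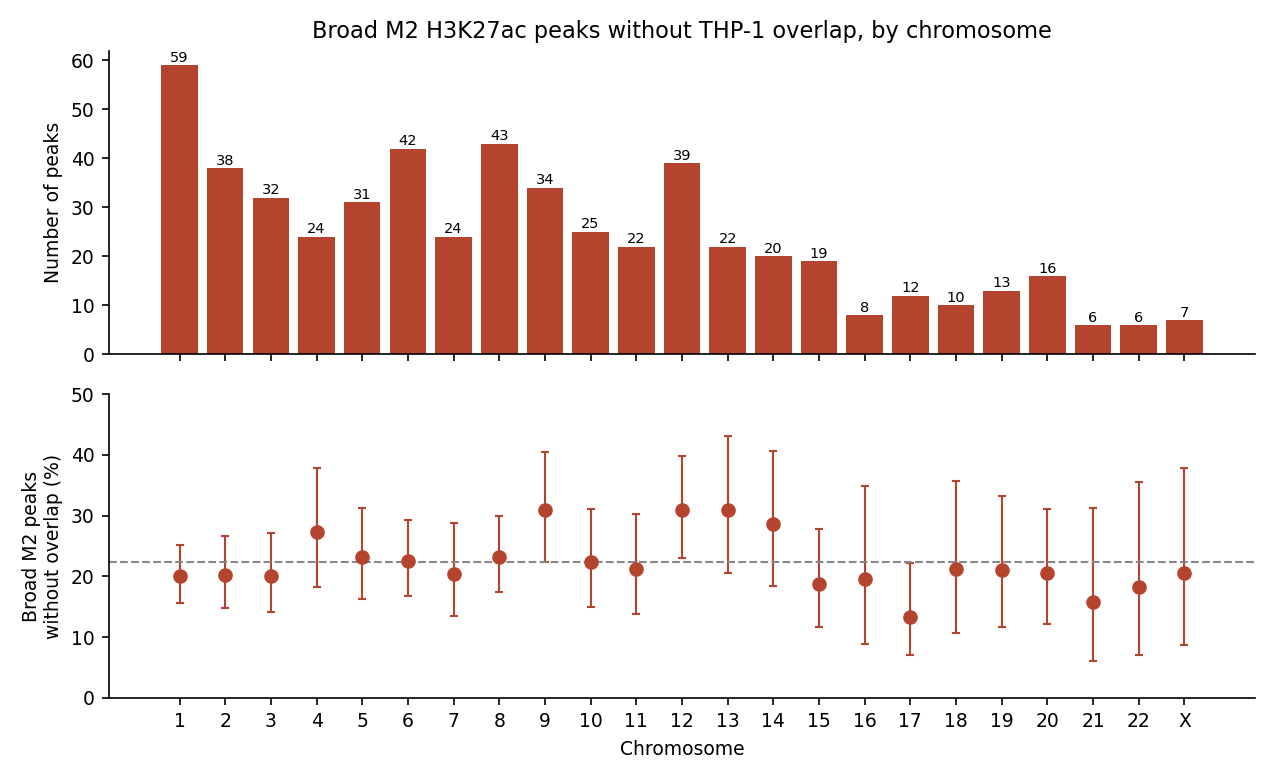
Top, number of broad M2-only peaks (y axis) on each chromosome (x axis), 59 on chromosome 1 and 6 on each of chromosomes 21 and 22. Bottom, these peaks as a percentage of all M2 peaks of at least 3000 bp on the chromosome, with exact 95% binomial intervals as bars and the genome-wide 22.4% as a dashed line, which lies outside the intervals of chromosomes 9, 12 and 17.

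Most broad M2-only peaks belonged to groups of M2 peaks. A further M2 peak of any width lay within 0.0125 Mb of 482 of the 552, which is 87.3% (84.3 to 90.0), against 84.9% (83.2 to 86.5) of broad M2 peaks with THP-1 overlap and 77.5% (77.1 to 77.9) of M2-only peaks under 3000 bp. The median distance to the next M2 peak was 1642 bp, against 1893 bp for broad M2 peaks with overlap. For M2-only peaks under 3000 bp it was shorter, 1057 bp, so by this measure the broad ones were not the closest to a neighbour. Within 50 kb of each edge the broad M2-only peaks had a median of 7 other M2 peaks and 9166 bp of other M2 peak sequence. THP-1 peaks there numbered a median of 2 and covered 1345 bp. Broad M2 peaks with overlap had medians of 7 other M2 peaks and 5 THP-1 peaks, and M2-only peaks under 3000 bp of 4 and 2. In 528 of the 552 neighbourhoods (95.7%, 93.6 to 97.2) the other M2 peaks covered more sequence than the THP-1 peaks, and in 24 they did not. M2 sequence was likewise the larger around 86.7% of M2-only peaks under 3000 bp. It was so around 65.0% of broad M2 peaks with overlap, which have a THP-1 peak by selection. The M2 list covers 61.3 Mb and the THP-1 list 28.0 Mb over the whole genome, so a surplus of M2 sequence is usual.

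The M2 peaks around them also tended to lack a THP-1 counterpart. Counted over all neighbourhoods, 3205 of 4248 other M2 peaks within 50 kb overlapped no THP-1 peak, which is 75.4%. Around broad M2 peaks with THP-1 overlap it was 7901 of 13870, or 57.0%, around M2-only peaks under 3000 bp 124179 of 184268, or 67.4%, and over the whole M2 list 63.0%. M2-only peaks of either width thus stood above the whole list. Selection enters on both sides: broad peaks with overlap have a THP-1 peak nearby, and M2-only peaks have none at their own site. Its part in these shares was not tested. A peak near several broad M2-only peaks is counted with each of them.

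Joining M2 peaks within 0.0125 Mb of each other placed the 552 peaks in 490 stitched regions, with a median of 4 M2 peaks and a median span of 17554 bp. Of these regions 267 (54.5%, 49.96 to 59.0) held no THP-1 peak at all, and 70 consisted of the broad M2-only peak alone. The other 223 regions combined a broad M2-only peak with at least 1 THP-1 peak. These counts were not set beside those of stitched regions that hold no broad M2-only peak, so they do not mark these regions out. Stitched regions of 10 or more M2 peaks held 98 of the 552 (17.8%, 14.7 to 21.2), against 16.5% (14.9 to 18.3) of broad M2 peaks with overlap.

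Regions free of THP-1 peaks could nonetheless hold many M2 peaks. The one with the most was chr12:65995964-66063376, where 22 M2 peaks, 2 of them broad M2-only ones, covered 34547 bp of 67413 bp. Next came chr20:49951122-49986299 with 17 M2 peaks over 18893 bp and chr4:74871132-74924360 with 13 over 13860 bp. The regions chr3:188184938-188244539 and chr22:39649227-39697131 held 12 each. These 5 regions had 0 THP-1 peaks.

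Broad M2-only peaks sat beside each other less often than broad M2 peaks with overlap did, in groups of very different size. Another of the 552 lay within 50 kb in 148 cases (26.8%, 23.2 to 30.7), while 721 of the 1916 with overlap (37.6%, 35.5 to 39.8) had another of their own kind that close. Counted against all 2468 broad M2 peaks, so that both groups had the same peaks to lie near, a broad M2 peak lay within 50 kb of 266 of the 552 (48.2%, 43.9 to 52.4) and of 808 of the 1916 (42.2%, 39.9 to 44.4). Of M2-only peaks under 3000 bp, 20.5% had a broad M2 peak within 50 kb.

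The 148 clustered peaks formed 65 runs, in which each lay within 50 kb of the one before. There were 51 runs of 2, 12 of 3, 1 of 4 and 1 of 6, and 404 of the 552 stood alone by this measure. Of the 65 runs, 50 held no THP-1 peak between their ends and 15 held at least 1, a count not set beside that of other runs of M2 peaks.

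The longest run lay at chr12:26423829-26524344, with 6 broad M2-only peaks covering 26.7 kb of a 100.5 kb stretch. Their fold enrichment ranged from 4.85 to 23.8, the highest at chr12:26486502-26493692, which was 7191 bp wide. The same stretch held 14 M2 peaks in all, of which 2 overlapped a THP-1 peak, and 3 THP-1 peaks covering 1613 bp. The first peak of the run was only 470 bp from a THP-1 peak, and the last 68977 bp.

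The second run, chr11:102415832-102474547, held 4 broad M2-only peaks over 20.4 kb with fold enrichments from 10.8 to 17.8, and 2 THP-1 peaks over 2806 bp lay between them. Their summits held 54 to 98 fragments, below the median of 114. Of the 12 runs of 3, the 3 with the most covered sequence contained no THP-1 peak, while the next one, chr6:14705324-14736673, contained 3. At chr12:66031848-66093127 the peaks covered 20.7 kb and were 225170 to 281080 bp from a THP-1 peak. At chr4:148254496-148334136 they covered 17.3 kb, 15525 to 64803 bp from a THP-1 peak, and their fold ranged from 7.89 to 24.2. At chr18:43371498-43409321 they covered 14.9 kb, 103046 to 121655 bp away, with folds from 10.6 to 24.5.

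**Figure D3:**
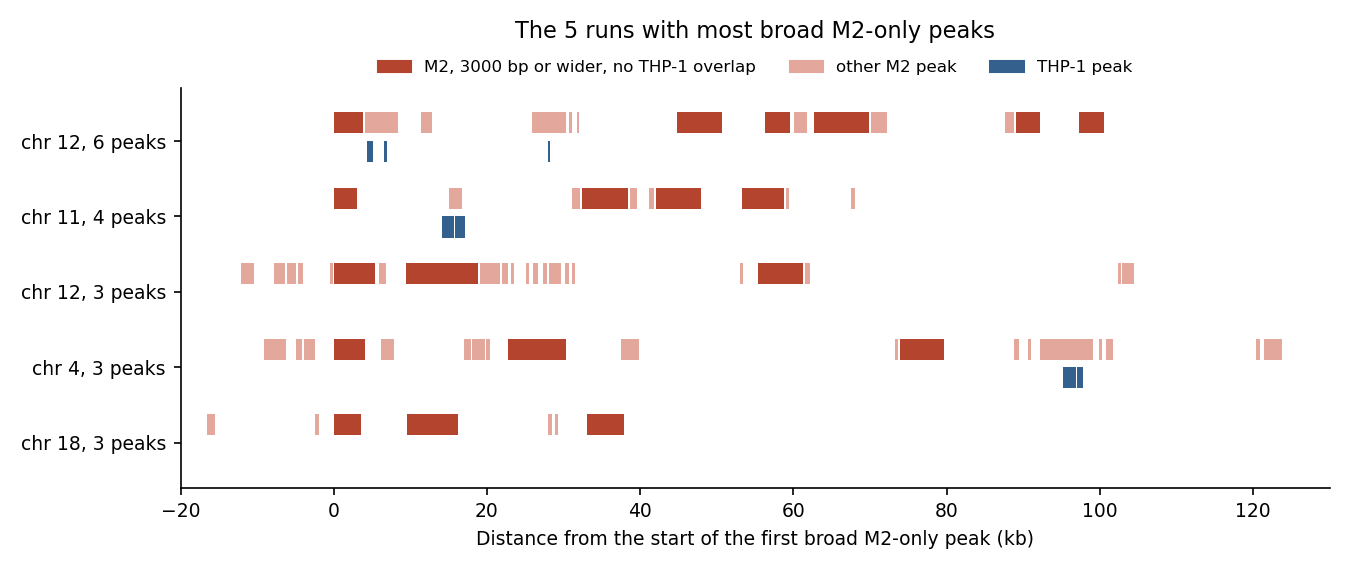
Maps of the 5 runs with most broad M2-only peaks, ties taken by covered length, 1 per row, with distance from the start of the first such peak on the x axis (kb). Upper boxes are M2 peaks, dark red for broad M2-only peaks and pale red for other M2 peaks, and lower blue boxes are THP-1 peaks. THP-1 peaks lie inside the runs of 6 and of 4 on chromosomes 12 and 11 and inside none of the 3 runs of 3 drawn.

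In windows of 1 Mb the densest was 188 to 189 Mb of chromosome 3, where 9 of 16 broad M2 peaks had no THP-1 overlap, the widest of all among them. The window 134 to 135 Mb of chromosome 6 followed with 8 of 12, and 26 to 27 Mb of chromosome 12 with 6 of 9. On chromosome 4, 5 of 6 broad M2 peaks between 148 and 149 Mb had none. On chromosome 11, between 102 and 103 Mb, and on chromosome 13, between 44 and 45 Mb, it was 4 of 4. The window on chromosome 6 also held the broad M2-only peak of lowest fold enrichment, chr6:134496399-134500495, at 1.80-fold. It had 316 fragments over its summit against a background 75.9 times the lowest in the list, so its low fold went with a high local background.

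The nearest THP-1 peak was a median of 20690 bp away from a broad M2-only peak (interquartile range 8019 to 51672), and 20666 bp (5551 to 59005) from an M2-only peak under 3000 bp. The medians differed by far less than the 95% interval of the first, 17490 to 24339 bp. The distance moved with the THP-1 calling threshold. With both lists held to a -log10 q of at least 10, the median was 37081 bp, over the 1057 broad M2-only peaks then found. With the M2 list alone held to that limit it stayed at 20690 bp. The spread was narrower for the broad peaks. A THP-1 peak within 5 kb was found for 17.8% (14.7 to 21.2) of them and for 23.5% of the narrower ones, and 11.6% (9.04 to 14.6) of the broad against 14.8% (14.4 to 15.2) of the narrower peaks were more than 100 kb from any. Within 1 kb it was 3.08% (1.80 to 4.89) of the broad and 9.87% (9.56 to 10.2) of the narrower peaks.

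**Figure D4:**
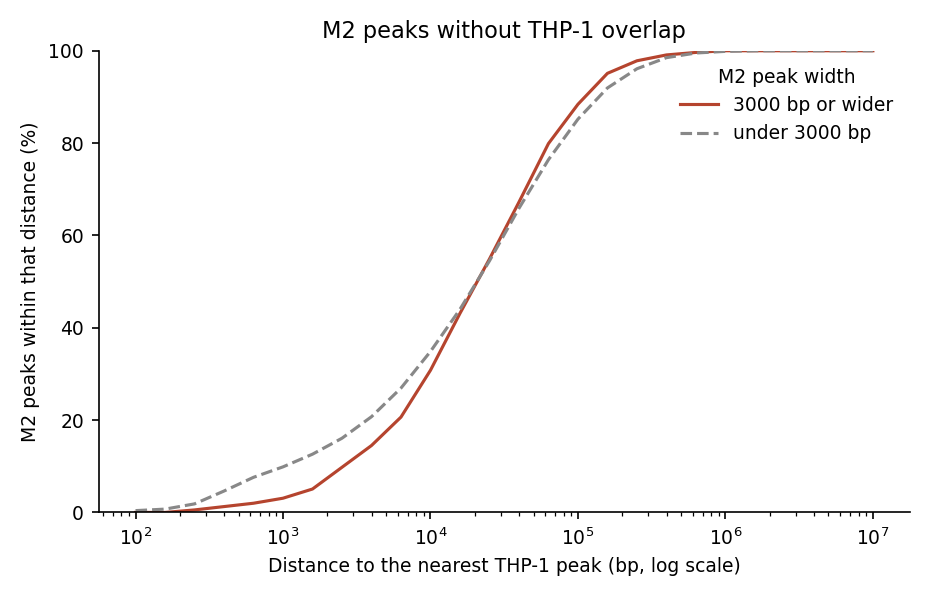
Percentage of M2 peaks without THP-1 overlap (y axis) that have a THP-1 peak within the distance on the x axis (bp, log scale), for the 552 peaks of 3000 bp or wider (red, solid) and the 34968 narrower ones (grey, dashed). The curves meet near 20 kb, where 49.5% of the broad and 49.2% of the narrower peaks have a THP-1 peak, and the red curve is the lower one at short distances and the higher one at long distances.

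Of the 552 peaks, 173 (31.3%, 27.5 to 35.4) had a THP-1 peak within 50 kb on both sides, 232 (42.0%, 37.9 to 46.3) on 1 side only and 147 (26.6%, 22.99 to 30.5) on neither. Of M2-only peaks under 3000 bp, a similar 28.6% (28.2 to 29.1) had none within 50 kb. The nearest THP-1 peak was itself shared with the macrophages for 483 of the 552, or 87.5% (84.4 to 90.1), against 80.2% (79.8 to 80.6) for M2-only peaks under 3000 bp and 75.3% of all THP-1 peaks. It was small as a rule, with a median width of 628 bp and a median fold of 3.89, close to the 661 bp and 3.67 of all THP-1 peaks.

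Fold enrichment in M2 was lowest near THP-1 peaks and highest far from them, without a steady order in between. The 17 broad M2-only peaks within 1 kb of a THP-1 peak had a median fold of 8.67, the 81 from there to 5 kb 10.7, the 175 up to 20 kb 12.51, the 215 up to 100 kb 11.0 and the 64 beyond 100 kb 15.3. Median fragments over the summit stayed between 106 and 116 in these groups. The background, as a multiple of the lowest, had a median of 6.19 in the nearest group, 3.49 to 4.12 in the 3 groups between and 2.58 in the farthest. Other M2 peaks within 50 kb numbered a median of 8 around the nearest group, 11 around the next and 4 around the farthest. M2-only peaks under 3000 bp showed the same directions, so these are not particular to the broad ones. From within 1 kb to beyond 100 kb their median fold rose from 4.38 to 5.21 and their background fell from 3.10 to 1.55. Their median fragments fell from 36 to 26.

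The stretch between the THP-1 peaks on either side of a broad M2-only peak varied widely in length. For 551 of the 552 there was a THP-1 peak on both sides on the chromosome, and they fell into 474 such intervals with a median length of 115584 bp (interquartile range 51960 to 275525), a length not set beside that of other intervals. M2 peaks covered a median of 7900 bp of an interval, in a median of 5 peaks. The interval with the most M2 sequence was chr12:65658177-66318297, 660.1 kb without a THP-1 peak, in which 36 M2 peaks covered 51.8 kb. Far shorter was chr4:148209632-148349661, where 15 M2 peaks covered 32.4 kb of 140.0 kb, or 23.2%.

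At the near end, 17 of the 552 had a THP-1 peak within 1 kb, and in each of the 17 that THP-1 peak overlapped another M2 peak. The closest was chr6:158181100-158185583, 4484 bp wide and 185 bp from a THP-1 peak, and the next was chr1:154832460-154836240, 186 bp away. The widest of the 17 was chr1:108579148-108586247 with 7100 bp, 14.1-fold over background and 389 bp from a THP-1 peak of 437 bp. With a THP-1 peak within 1000 bp counted as overlap, 535 of the 552 would remain.

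At the far end stood a pair on chromosome 3, chr3:154781718-154784723 and chr3:154786783-154790034, 677325 and 672014 bp from the nearest THP-1 peak. They were 21.9-fold and 21.7-fold over background with 77 and 80 fragments at the summit, and only 2 other M2 peaks lay within 50 kb of each. The others of the 5 farthest were chr17:13248848-13252206 at 488109 bp, chrX:141606736-141609811 at 476540 bp and chr1:98788197-98791233 at 414521 bp. Their folds were 26.5, 22.9 and 20.05, all above the median of 11.4, and each likewise had 2 other M2 peaks within 50 kb. These 5 spanned 3006 to 3359 bp, near the lower limit of width.

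The widest broad M2-only peak was chr3:188397192-188408521, an unbroken 11330 bp with 15.8-fold enrichment and 168 fragments at its summit. A THP-1 peak of 766 bp lay 5508 bp away and was the only THP-1 peak within 50 kb, where 11 other M2 peaks covered 19.5 kb. The second, chr1:192480525-192491778, spanned 11254 bp at 14.2-fold with 201 fragments, and 15 other M2 peaks covering 29.7 kb stood within 50 kb, against 2 THP-1 peaks covering 0.925 kb. The third, chr8:19936150-19946888, spanned 10739 bp at 13.5-fold, and 3 THP-1 peaks covered 1.69 kb within 50 kb of it.

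The next 5 in width had no THP-1 peak within 50 kb. Of these, chr12:66041234-66050733 was 9500 bp wide and 18.3-fold enriched, with 24 other M2 peaks within 50 kb covering 31.9 kb, the highest number at any of the 552. Its summit stood at 95.5% of its width, close to the higher edge, and no THP-1 peak came closer than 267564 bp. The peak chr10:92758020-92766224, 8205 bp wide and 13.6-fold enriched, had 5 other M2 peaks covering 3.85 kb around it and a THP-1 peak 134888 bp away. That THP-1 peak overlapped no M2 peak, unlike the nearest THP-1 peak of the other 9 widest.

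On chromosome 4, chr4:148277288-148284858 was 7571 bp wide and reached 24.2-fold with 229 fragments, the highest fold of the 10 widest. Farther along the same chromosome, chr4:148497496-148505035 was 7540 bp wide and 23.8-fold enriched with 112 fragments over a background only 1.55 times the lowest. Between them in width was chr19:51622532-51630080 with 7549 bp, 10.4-fold and 110 fragments, 98431 bp from a THP-1 peak. The last of the 10 were chr10:17064770-17072277 with 7508 bp at 14.7-fold, with 1 THP-1 peak within 50 kb, and chr1:224726655-224734032 with 7378 bp at 10.0-fold. Around this last peak stood 15 other M2 peaks covering 23.2 kb within 50 kb, against 7 THP-1 peaks covering 5.81 kb, the highest number among the 10.

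**Figure D5:**
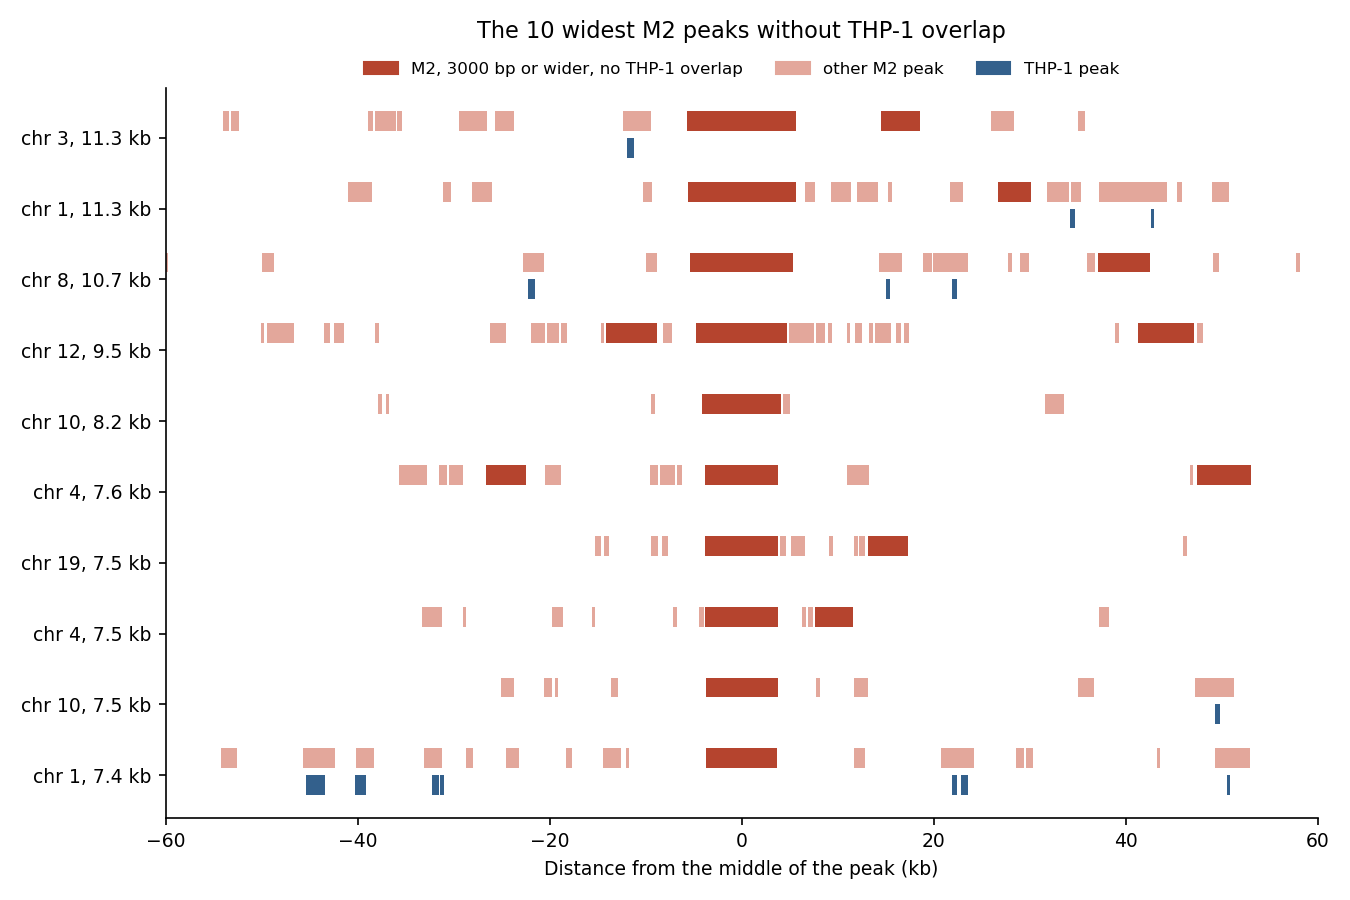
Maps of the 10 widest broad M2-only peaks, 1 per row from the widest down, with distance from the middle of the peak on the x axis (kb). Upper boxes are M2 peaks, dark red for broad M2-only peaks and pale red for other M2 peaks, and lower blue boxes are THP-1 peaks. In 5 rows no THP-1 peak lies within 50 kb of the peak, and the lowest row has 7.

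The broad M2-only peaks of highest fold were not the widest. The first was chr21:47478099-47482610 at 34.8-fold, 4512 bp wide with 164 fragments, and the second chr9:75140332-75143714 at 34.5-fold, 3383 bp wide with 128 fragments. The remaining ones were chr7:18899622-18903228 at 32.8-fold, chr18:2514629-2518001 at 32.3-fold and chr10:23662653-23666395 at 31.9-fold. The peak on chromosome 7 had a THP-1 peak of 353 bp within 2652 bp. The one on chromosome 18 was the most isolated of the 5, with no other peak of either list within 50 kb and its next M2 peak 52459 bp away. The background at these 5 was 1.11 to 1.58 times the lowest of the list, below the median of 3.61 for all 552, and their fragments, 118 to 164, all lay above the median of 114.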

How the data were processed

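H3K27ac ChIP-seq peak lists of 1 M2 and 1 THP-1 library were analysed, tied to the samples by the names of the lists. The submitters' processing notes name Bowtie2, MACS2 2.1.0 and hg19 and give no settings. Columns without headers were taken in narrowPeak order. Peak start, end and summit, the fold (ratio over local background), the -log10 p and -log10 q and a score per peak are the authors' deposited values. The score restates the -log10 q and served no step.

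Overlap, distances between edges and runs were computed in Python 3.11.15 with numpy 2.4.6, pandas 2.3.3 and scipy 1.17.1. Fragments and background were solved from fold, (pileup + 1) over (background + 1), and a Poisson p, with the pileup scaled by 0.842 in M2 and not scaled in THP-1. A single solution within 0.001 of the -log10 p was found for 99.8% of peaks in the M2 and 100% in the THP-1 list. These are inferred values, not counts the authors gave, with 9 to 611 fragments per M2 summit and 8 to 687 per THP-1 summit. Overlap, distance and the recovery of fragments were tested on simulated data, the recovery over a narrower range of backgrounds than the lists hold. Runs, neighbourhood counts, stitching and intervals between THP-1 peaks were not tested in this way. Shares carry exact (Clopper-Pearson) and medians order-statistic 95% intervals. No p-value was computed.

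The regions and settings were chosen with earlier results of these data known. Regions were named as the 10 widest, the 5 of highest fold, the 5 farthest from a THP-1 peak, the 5 runs with most peaks, ties by covered length, and the 3 on each side of the width limit. The extremes of other measures, such as the closest pairs, the densest windows and the peak of lowest fold, were picked after their values were seen. Location in genes, marker lists and sequences were not analysed, because the reference tables used here are in GRCh38. The authors' -log10 q limit, width, overlap, list length, merging and clustering distances were varied.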

Additional observations from a re-analysis of the deposited data

How the results depend on the processing

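Of 60 values recomputed under 12 other settings, 38 stayed within the interval of the reported value, or within 1.5 times for the count of peaks, and 22 did not. With both lists held to a -log10 q of at least 10, broad M2-only peaks numbered 1057, or 43.0% of broad M2 peaks, with a median distance of 37081 bp to a THP-1 peak, a median fold of 10.4 and 73.3% having a further M2 peak within 0.0125 Mb. Fewer THP-1 peaks, 13241 of 31444, were then left to overlap. With the M2 list alone held to that limit, a setting chosen after seeing the data, there were 550. A width of 2000 bp gave 2084 peaks (29.2%), 36.4% with another within 50 kb, a fold of 10.0 and 80.3% with a further M2 peak, and a width of 5000 bp gave 70 (14.9%), a fold of 13.5 and 97.1%. Merging peaks within 1000 bp gave 1202 peaks (26.5%) and 74.2% with a further M2 peak, fewer by construction. In an M2 list cut to 31444 peaks it was 73.8%, and at 5 kb 72.5%. Ignoring THP-1 overlaps under 10% of the width gave 24.2% without overlap. The share with another broad M2-only peak was 18.7% within 20 kb and 31.5% within 100 kb. The median summit position stayed within its interval in the 7 settings tried, which the arbitrary direction of counting favours. Depth limits what a missing THP-1 peak means, since weaker H3K27ac is not in the list. No paired analysis was possible because each cell type has 1 library and no test was made. Settings without a replicate could not be made for the same reason.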

Other observations

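The opposite set was much smaller, and so was the list it came from. THP-1 peaks cover 28.0 Mb and M2 peaks 61.3 Mb, so a THP-1 peak has more sequence to meet in the other list. Of M2 peaks of any width, 63.0% overlapped no THP-1 peak. The part of list size in the counts was not tested. Of the 622 THP-1 peaks at least 3000 bp wide, 36 overlapped no M2 peak, which is 5.79% (4.09 to 7.92), against 24.7% of THP-1 peaks of any width. Their median width was 3367 bp and the widest spanned 5227 bp. They had a median fold enrichment of 7.42 and 59.5 fragments over the summit, against 6.08 and 102 at broad THP-1 peaks with M2 overlap. As among the M2 peaks, the broad peaks without a counterpart had the higher fold, the fewer fragments and the lower background, 4.03 against 8.54 times the lowest of the list. Fold, fragments and background are tied, since fragments and background were solved from the fold.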
